A study of Mus musculus with 6 samples.

Results

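The genes described here encode the nuclear-encoded subunits of the mitochondrial respiratory chain and ATP synthase, measured by RNA sequencing in plaque of the aortic arch. They were chosen by symbol: rows of the count table starting with Ndufa, Ndufb, Ndufc, Ndufs, Ndufv, Uqcr, Cox4, Cox5, Cox6, Cox7, Cox8 or Atp5, with Sdha, Sdhb, Sdhc and Sdhd, leaving out assembly factors starting with Ndufaf and the striated muscle isoforms Cox6a2, Cox7a1 and Cox8b. The rule found 82 of the 24062 genes in the table. It used no expression value. By complex, 36 belonged to complex I, 4 to complex II, 8 to complex III, 17 to complex IV and 17 to complex V. Ndufa4 and Ndufa4l2 were counted in complex IV, where the NDUFA4 protein is now placed, and Atp5s and Atp5sl were counted in complex V by symbol only.

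All mice lacked the low-density lipoprotein receptor, which makes them prone to atherosclerosis, and were of the C57BL/6 strain. Feeding began with 12 weeks of high-fat chow, TD88137 in the labels, and ended with 3 weeks of low-fat chow before the tissue was taken. Vehicle (3 libraries) or ABT263 (3 libraries) was given, ABT263 at 100 mg/kg by intraperitoneal injection, once per day, in week 1 of low-fat feeding. ABT263 (navitoclax) blocks anti-apoptotic members of the BCL-2 family, which hold the mitochondrial outer membrane closed, and is used to remove senescent cells. The labels give neither sex nor age, and do not say whether a library came from 1 mouse or from several, so p-values measure only the spread between these libraries.

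The respiratory chain sits in the inner mitochondrial membrane. Complex I takes electrons from NADH and complex II from succinate, complex III passes them to cytochrome c, complex IV hands them to oxygen, and complex V, the ATP synthase, uses the proton gradient so formed to make ATP. A few subunits of complexes I, III, IV and V come from mitochondrial DNA and were not analysed here. The other subunits come from nuclear genes, which are active in nearly every cell and reach their highest levels in heart, muscle and brown fat. Several complex IV subunits exist as paired isoforms whose use differs between tissues.

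One regulator of these nuclear genes is nuclear respiratory factor 1 (NRF1), which was named for its sites in respiratory chain promoters and binds a palindrome of 10 bases. RefSeq promoters (GRCm38.p6, 250 bases before to 50 after the start) were matched for 68 of the 82 genes, and 5 of them held the exact palindrome, searched on both strands. The 5 windows are shown to give the motif in its setting, 10 bases to each side, 5′ to 3′ on the strand of the gene, with the motif in capitals.
Atp5g2: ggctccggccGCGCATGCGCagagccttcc
Atp5k: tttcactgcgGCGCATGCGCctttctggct
Cox6a1: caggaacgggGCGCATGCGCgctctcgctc
Ndufa11: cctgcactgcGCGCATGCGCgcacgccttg
Uqcrc1: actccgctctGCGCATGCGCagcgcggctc

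These windows lie at chr15:102671070-102671099 (minus strand), chr5:108434430-108434459 (minus strand), chr5:115349101-115349130 (minus strand), chr17:56717692-56717721 (plus strand) and chr9:108936668-108936697 (plus strand). The first base of the motif stood 42, 50, 162 and 60 bases before the start in Atp5g2, Atp5k, Cox6a1 and Ndufa11, and at base 31 after it in Uqcrc1. The 10 letters were present in 7.35% of the matched promoters, in 1.91% of the 11307 promoters of genes tested and in 0.977% of all 27025 promoters. Among other motifs, searched on both strands, the YY1 motif AAGATGGCG was in 7 of the 68 (10.3%, against 2.83% of tested and 1.49% of all promoters). The oestrogen-related receptor motif AAGGTCA was in 8 (11.8%, against 3.3% and 4.66%), the ETS motif CCGGAAG of GABPA in 15 (22.1%, against 16.3% and 9.12%), CCAAT in 30 (44.1%, against 38.1% and 37.9%) and TATAAA in 6 (8.82%, against 7.63% and 14.2%). No searched motif holds another. A match describes the letters only, and the 5 genes shown differed in level among themselves: relative to the other libraries of its group, vehicle replicate 2 was at 1.41-fold (Uqcrc1) to 2.36-fold (Atp5k), and ABT263 replicate 2 at 0.988-fold (Atp5g2) to 2.08-fold (Uqcrc1).

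Total counts ran from 62930547 to 110452098 per library. Of the 82 genes, 79 passed the filter on low counts, and the other 3 had 0 counts in every library, which allows at most 0.0477 CPM (counts relative to library size). Cox7b2 and Cox8c, isoforms known from testis, were 2 of these. The third was Ndufs5, an accessory subunit found in complex I of every tissue, whose exons overlap no other gene but of whose 50-base stretches 21.7% also occur in transcripts of other genes. Why it was listed at 0 was not tested. Of the 82, 22 had exons overlapping another gene and 31 shared at least 5% of their 50-base stretches with other genes, so their counts are uncertain. Together the 82 genes took 0.579%, 0.965% and 0.574% of the counts of the 3 vehicle libraries in order, and 0.771%, 1.21% and 0.593% of those of the 3 ABT263 libraries. Values below follow the same order, replicates 1, 2 and 3 of each group.

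Levels of respiratory chain genes overlapped between the ABT263 and the vehicle libraries in every complex. None of the 79 genes passed the edgeR quasi-likelihood test at an adjusted p of 0.05 (smallest adjusted p 0.704, for Ndufv1), where 0.0% of the 15222 genes tested passed. At an unadjusted p under 0.05 there were 0 of the 79, against 8.38% of all genes, and the groups overlapped for each of the 79, where the groups did not overlap for 12.0% of all genes (5.68% higher with ABT263). DESeq2 and limma-voom called 0 of the 79 as well, while DESeq2 called 1.06% of the 14425 genes for which it gave an adjusted p. Fold changes were small: 65 of the 79 were positive and 14 negative, with a median log2 fold change (ABT263 over vehicle) of 0.15, beside 7629 of 15222 positive and a median of 0.00080 over all genes tested. Medians by complex were 0.22 (31 of 35 positive), 0.15 (4 of 4), 0.32 (7 of 8), 0.11 (12 of 15) and 0.07 (11 of 17) for complexes I to V. The sign of these medians rested on single libraries: the median over the 79 was -0.10 without ABT263 replicate 2, -0.025 without vehicle replicate 3, 0.032 without vehicle replicate 1, 0.22 without ABT263 replicate 1, 0.32 without ABT263 replicate 3 and 0.49 without vehicle replicate 2.

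**Figure D1:**
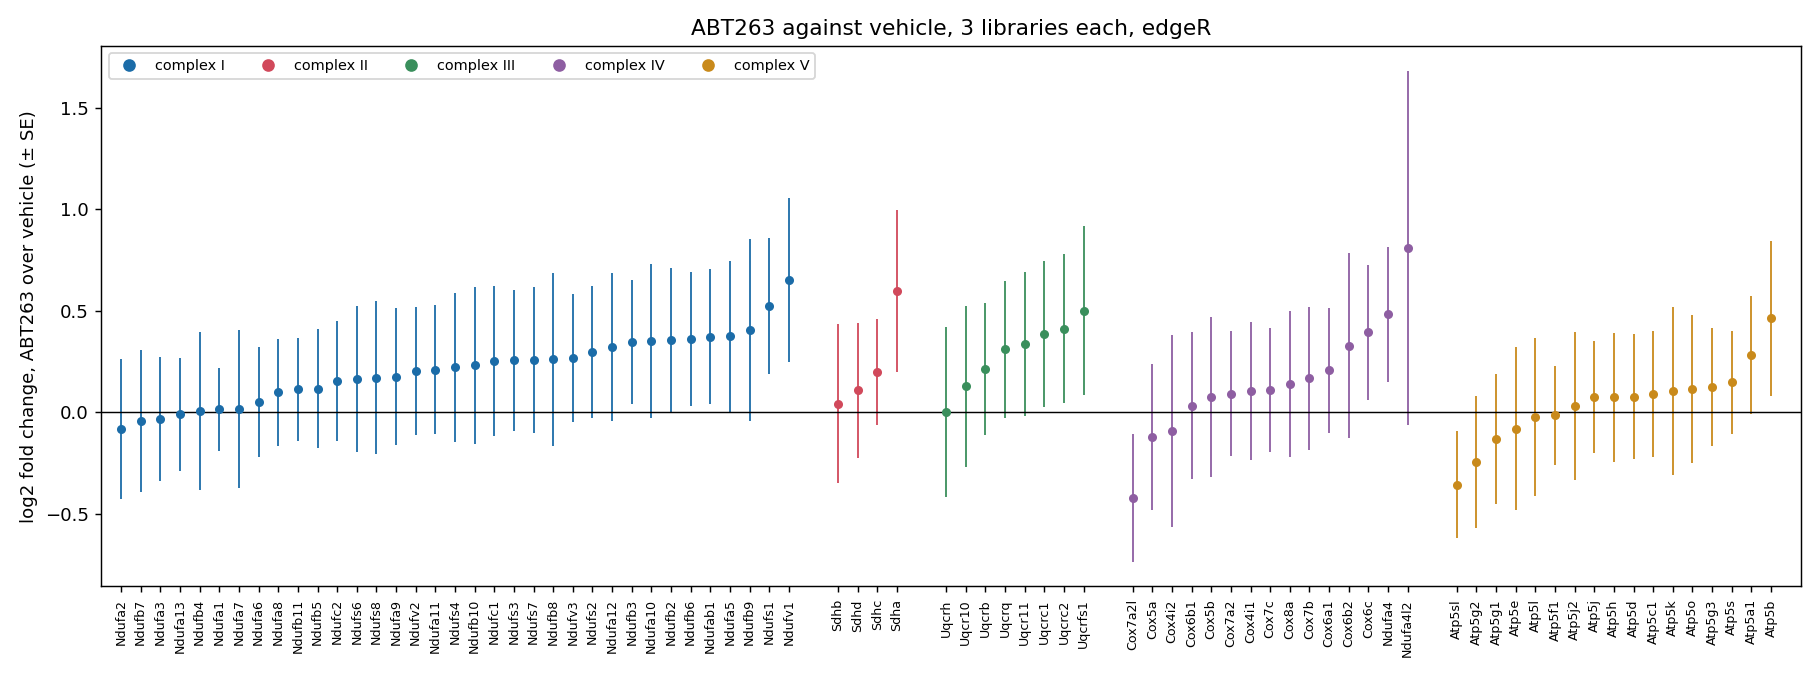
Log2 fold change (ABT263 over vehicle, edgeR, 3 libraries per group) on the vertical axis for each of the 79 respiratory chain genes tested, ordered within complexes I to V, with bars of ± 1 standard error. Fold changes run from -0.42 (Cox7a2l) to 0.81 (Ndufa4l2), and no gene passed the test.

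What set the libraries apart was 1 library in each group. Summed over the 82 genes, the level with vehicle was 6231, 9894 and 5721 CPM, and that with ABT263 was 7306, 11292 and 6121 CPM. Vehicle replicate 2 was thus 1.66-fold of the mean of vehicle replicates 1 and 3, and ABT263 replicate 2 was 1.68-fold of the mean of ABT263 replicates 1 and 3. Every one of the 79 genes was highest in 1 of these 2 libraries (36 in vehicle replicate 2 and 43 in ABT263 replicate 2), beside 54.9% of all genes tested. For 69 of the 79 (87.3%) they were the 2 highest libraries, beside 10.5% of all genes tested. Neither share over all genes was matched for transcript length, with which the level in vehicle replicate 2 moved, as described below. Each of these 2 libraries is a single sample, so the folds within a group that follow have no replicate and no test.

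**Figure D2:**
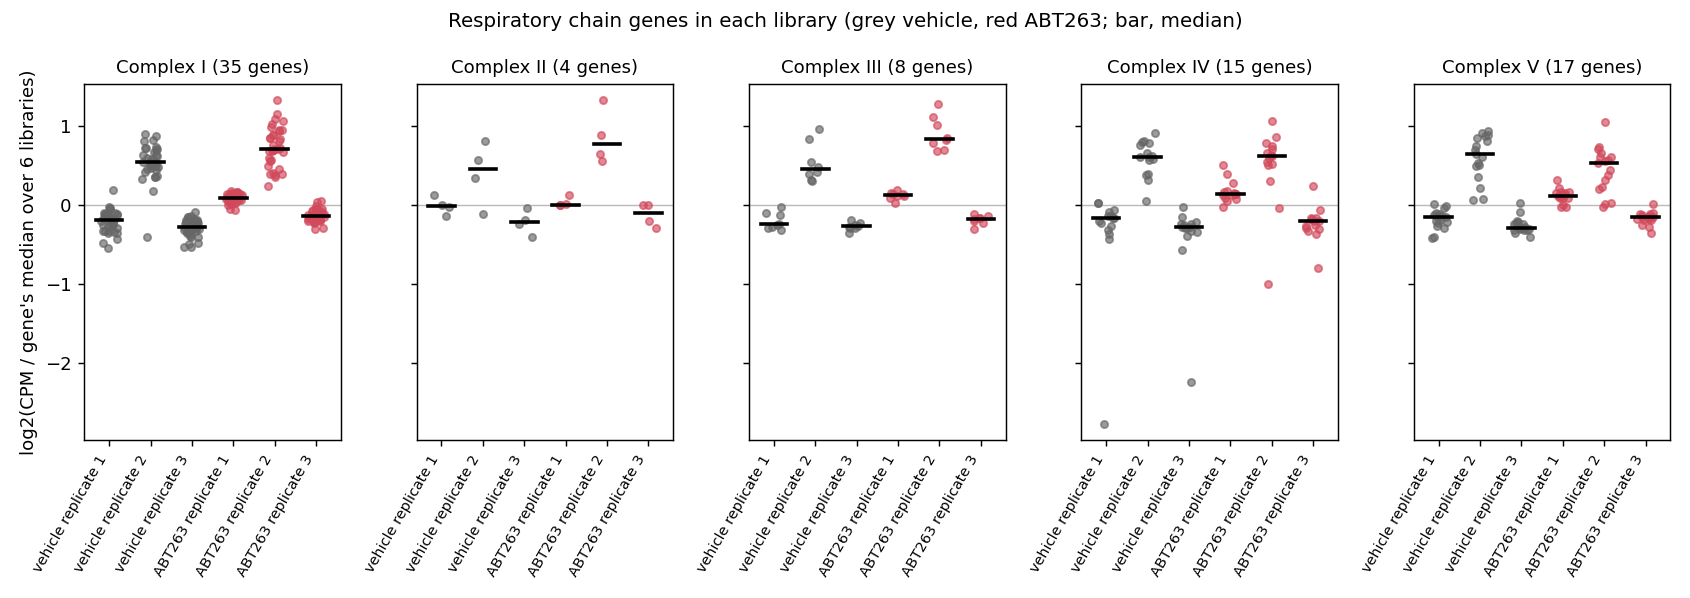
Level of each tested gene in each library, as log2 of its CPM over its own median across the 6 libraries, by complex (35, 4, 8, 15 and 17 genes; grey points vehicle, red points ABT263, bars medians). The medians of vehicle replicate 2 and ABT263 replicate 2 stand above those of the other 4 libraries in every complex.

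These 2 libraries also differed in cell type markers. White adipocyte markers (8 of 10 tested, all 8 highest in ABT263 replicate 2) summed to 4799 CPM in ABT263 replicate 2 and to 200.96 to 430 CPM in the other 5 libraries. Brown adipocyte markers (3 of 5 tested) summed to 406 CPM there and to 5.05 to 9.76 CPM elsewhere, and Ucp1, the uncoupling protein that defines brown fat, stood at 80.2 CPM there, at 0 counts in vehicle replicate 1 and at 0.124 to 0.224 CPM in the remaining 4. Smooth muscle markers (9 of 9 tested) summed to 16332 CPM in ABT263 replicate 2 and 10191 CPM in ABT263 replicate 3, against 2492 CPM in ABT263 replicate 1 and 2718 to 3740 CPM with vehicle. Skeletal muscle markers (8 of 8 tested) had their highest sum in ABT263 replicate 3, at 53.9 CPM against 5.95 to 10.1 CPM. Cardiac markers (7 of 8 tested) had theirs in ABT263 replicate 2, at 96.2 CPM against 11.6 to 39.1 CPM. Singly, 5 of the 7 cardiac markers tested were highest there. In vehicle replicate 2 the macrophage markers (10 of 10 tested) summed to 15121 CPM, against 7782 and 12367 CPM in the other vehicle libraries and 3645 to 7602 CPM with ABT263. Of these 10, 7 were highest in vehicle replicate 2, and Cd68, Trem2 and Mrc1 were not. Mrc1 was lowest there, at 42.9 CPM against 63.1 to 164 CPM in the other 5 libraries. Endothelial markers (6 of 6 tested) summed to 443 CPM in vehicle replicate 2, against 1659 to 4814 CPM in the other 5 libraries. Between the groups, T cell markers (6 of 6 tested) summed to 82.2 to 129.9 CPM with vehicle and 24.7 to 69.8 CPM with ABT263, and B cell markers (5 of 5) to 20.6 to 75.1 and 4.45 to 13.4 CPM. Adventitial fibroblast markers (6 of 6 tested) had their highest sum in ABT263 replicate 2, at 1884 CPM against 402 to 1150 CPM. Singly, 4 of the 6 were highest there, and Ly6a was not, at 190 CPM against 622 CPM in vehicle replicate 2. Markers of smooth muscle, macrophages and endothelium, cells that plaque is known to hold, were thus present in every library. No marker of these 10 lists was at 0 in all libraries. Their part in the respiratory chain levels was not tested, and in bulk tissue fewer cells of a type cannot be told apart from less RNA per cell.

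Transcript length moved with the level in vehicle replicate 2. Across all genes tested with a length (14443 genes, not independent replicates, sharing 1 library), the log2 ratio of vehicle replicate 2 to vehicle replicates 1 and 3 had a Spearman rho of -0.51 with transcript length, and across the respiratory chain genes (n = 78) the rho was -0.37. For ABT263 replicate 2 the same rho was 0.019 across 14463 genes and 0.26 across the 78. Of transcripts under 700 bp, the 32 respiratory chain genes had a median fold of 1.77 in vehicle replicate 2 and all 508 genes tested one of 1.77 as well. From 700 to 1200 bp the medians were 1.89 (23 genes) and 1.55 (1401 genes), and at 1200 bp and over 1.43 (23 genes) and 0.939 (12586 genes). In ABT263 replicate 2 the respiratory chain genes had medians of 1.59, 1.62 and 1.89 over these 3 classes, where all genes had 1.05, 1.04 and 1.01. The part of length in the level of vehicle replicate 2 was not tested.

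**Figure D3:**
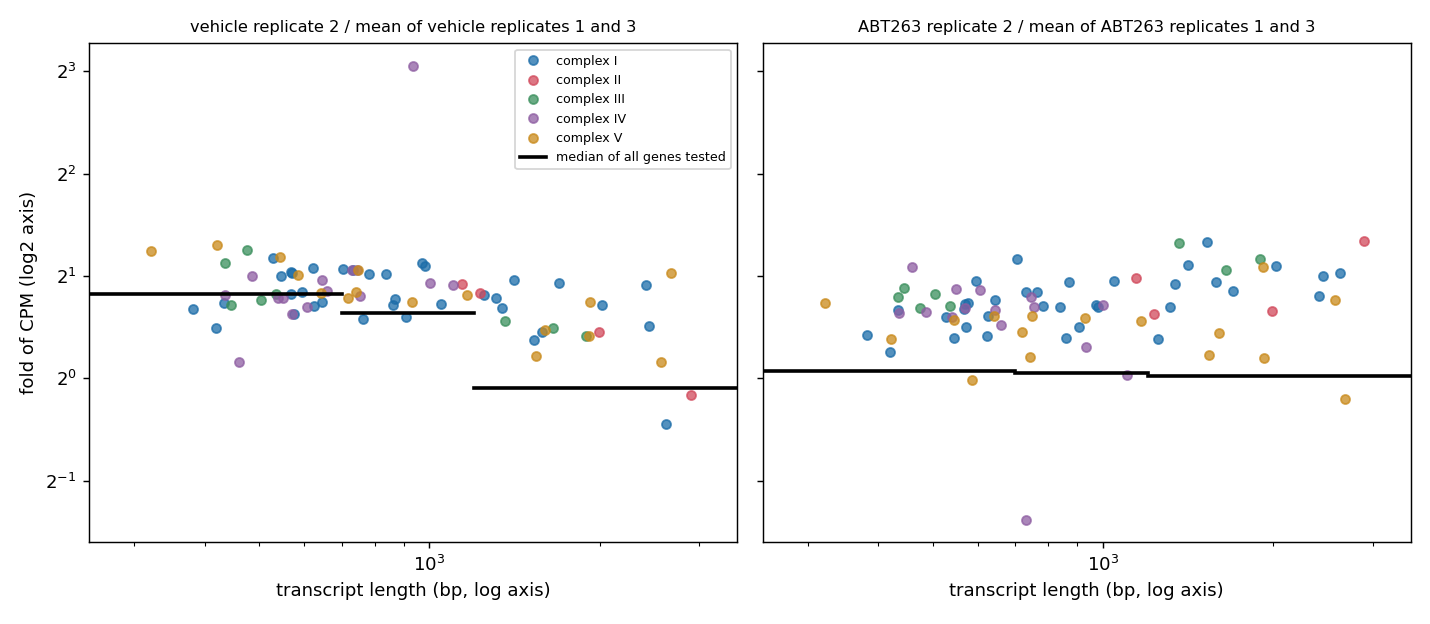
Fold of CPM against transcript length (both log axes) for 78 respiratory chain genes, coloured by complex; left, vehicle replicate 2 over the mean of vehicle replicates 1 and 3; right, ABT263 replicate 2 over the mean of ABT263 replicates 1 and 3. Black lines are the medians of all genes tested in 3 length classes, which step from 1.77 to 1.55 and 0.939 on the left and stay between 1.01 and 1.05 on the right.

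The 2 libraries had their highest folds in different named subunits. Above 2-fold in vehicle replicate 2 were 24 of the 79 genes, against 10.3% of all genes tested, and above 2-fold in ABT263 replicate 2 were 11 of the 79, a share close to the 11.9% of all genes. The shares over all genes were not matched for transcript length, with which the level in vehicle replicate 2 moved. Among the named genes, Sdha, Ndufv1 and Uqcrfs1 had the highest folds in ABT263 replicate 2 (2.53, 2.52 and 2.50), and Ndufa4l2, Atp5e and Uqcrh those in vehicle replicate 2 (8.28, 2.46 and 2.38). In complex I the 7 core subunits had median folds of 1.66 in vehicle replicate 2 and 1.92 in ABT263 replicate 2, and the 28 accessory subunits 1.78 and 1.64. These core and accessory classes were drawn up with the values known and serve as a description.

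**Figure D4:**
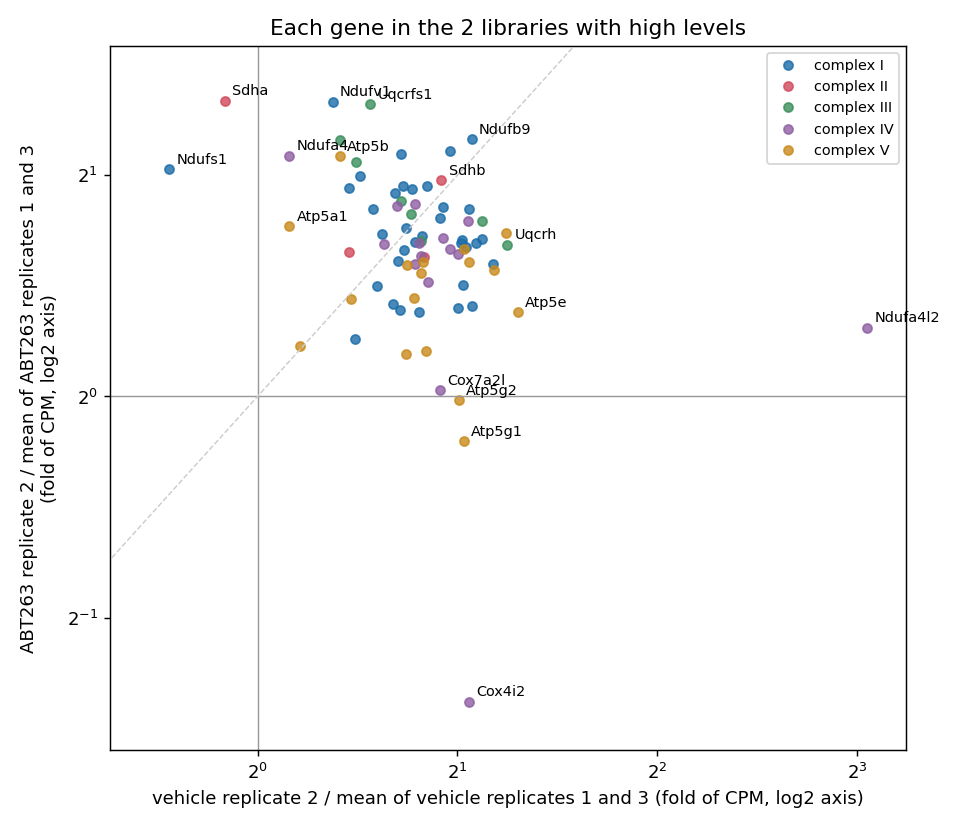
Each point is 1 of 79 respiratory chain genes, coloured by complex; horizontal axis, fold of vehicle replicate 2 over the mean of vehicle replicates 1 and 3; vertical axis, fold of ABT263 replicate 2 over the mean of ABT263 replicates 1 and 3 (log2 axes; dashed line, equal folds). Sdha and Ndufs1 are above 2-fold on the vertical axis and below 1 on the horizontal one, and Cox4i2 lies at 0.384 on the vertical axis.

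Complex I held both patterns. Ndufv1 binds the NADH and the flavin that take up the electrons (chromosome 19, 4007384 to 4012806, mm10). Vehicle libraries held 61.6, 78.6 and 59.5 CPM and ABT263 libraries 76.7, 175 and 62.0 CPM (means 66.6 ± 10.4 and 104 ± 61.3, SD, n = 3; log2 fold change 0.65, SE 0.41, edgeR adjusted p = 0.704). Only ABT263 replicate 2 lay above the vehicle range, and without it the fold change was 0.062. Ndufs1, the largest subunit, which carries iron-sulfur clusters (chromosome 1, 63143596 to 63176833), had vehicle levels of 63.4, 41.9 and 50.6 CPM and ABT263 levels of 53.7, 113 and 57.3 CPM (log2 ratio of ABT263 to vehicle 0.52, with SE 0.34 and adjusted p = 0.715). It was 1 of 2 genes lowest in vehicle replicate 2. Among accessory subunits, Ndufb3 had a log2 fold change of 0.35 and Ndufab1, which also serves as the mitochondrial acyl carrier protein, one of 0.37. Ndufa6, the complex I gene of highest level per length at 176 CPM per kb, had vehicle levels of 57.5, 88.0 and 52.7 CPM and ABT263 levels of 70.5, 82.3 and 52.6 CPM (log2 fold change 0.05, SE 0.27), and was highest in vehicle replicate 2. The other tested complex I genes had fold changes between -0.08 and 0.40.

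Complex II, which is also an enzyme of the citric acid cycle, has 4 subunits, all encoded in the nucleus. Sdha, its flavoprotein that oxidises succinate (chromosome 13, 74322254 to 74350280), was near one level in 5 libraries and high in 1: it had vehicle levels of 201.4, 171 and 181 CPM and ABT263 levels of 185, 467 and 184 CPM (means 184 ± 15.7 and 279 ± 163; log2 fold change 0.60, SE 0.40, edgeR adjusted p = 0.731). Without ABT263 replicate 2 its fold change was 0.0082. Sdhb, the iron-sulfur subunit (chromosome 4, 140961203 to 140979193), was high in vehicle replicate 2 as well, with 93.4, 167 and 82.7 CPM against 95.5, 175 and 82.2 CPM (log2 fold change 0.04, SE 0.39). The membrane anchors Sdhc and Sdhd had 0.20 ± 0.26 and 0.11 ± 0.33 (log2 fold change ± SE). So the partners Sdha and Sdhb, which bind each other in equal number, differed in vehicle replicate 2, at 0.893-fold and 1.89-fold of the other vehicle libraries. Their transcripts differ in length, at 2900 bp and 1142 bp. All genes tested had median folds there of 0.939 at 1200 bp and over and 1.55 from 700 to 1200 bp. The part of length in this difference was not tested.

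Complex III had a median log2 fold change of 0.32 and held genes of both kinds. Uqcrfs1, the Rieske iron-sulfur protein (chromosome 13, 30540308 to 30545362), had vehicle levels of 47.1, 66.1 and 42.4 CPM and ABT263 levels of 53.7, 122 and 44.1 CPM (0.50 ± 0.42 SE on the log2 scale; edgeR adjusted p = 0.798). Without ABT263 replicate 2 it was -0.08. The core proteins Uqcrc2 and Uqcrc1 had 0.41 (SE 0.37) and 0.38 (SE 0.36), and were 2.24-fold and 2.08-fold in ABT263 replicate 2. Uqcrh, the small acidic hinge protein that helps cytochrome c dock and the complex III gene of highest level per length (316 CPM per kb), had vehicle levels of 103, 245 and 103 CPM and ABT263 levels of 138, 200.7 and 111 CPM, with equal group means of 150.0 ± 81.9 and 150.0 ± 45.9. It was 2.38-fold in vehicle replicate 2 and 1.61-fold in ABT263 replicate 2. The remaining small subunit named by the rule, Uqcr11, had 0.34 (SE 0.35). Cyc1 (cytochrome c1 of the same complex) and Cycs (cytochrome c), which the symbol rule does not take, had 0.48 (SE 0.45) and 0.46 (SE 0.42), with 2.53-fold and 2.13-fold in ABT263 replicate 2.

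In complex IV the isoforms of a subunit differed in their levels across the libraries. Cox4i1, the common isoform of subunit 4 and the complex IV gene of highest level per length (359 CPM per kb over the 6 libraries; chromosome 8, 120668222 to 120674207), had vehicle levels of 216, 366 and 202 CPM and ABT263 levels of 259, 377 and 207 CPM (log2 fold change 0.10, SE 0.34). Cox4i2, its low-oxygen and lung isoform (chromosome 2, 152754173 to 152765037), had vehicle levels of 9.20, 19.3 and 9.30 CPM and ABT263 levels of 16.2, 5.71 and 13.5 CPM (-0.093 ± 0.47 SE on the log2 scale; edgeR adjusted p = 0.981). It was the 1 gene of the 79 that was lowest in ABT263 replicate 2, at 0.384-fold of the other ABT263 libraries. Without vehicle replicate 2 and ABT263 replicate 2 its fold change was 0.68 (SE 0.19, adjusted p = 0.642). As a share of both isoforms per length, Cox4i2 made up 4.21%, 5.16% and 4.55% with vehicle and 6.08%, 1.54% and 6.30% with ABT263, shares that overlapped between the groups through ABT263 replicate 2.

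Ndufa4l2, a paralog of Ndufa4 known to be induced in low oxygen and to be abundant in pericytes (chromosome 10, 127514967 to 127517154), was the most variable of the 79 genes. It had vehicle levels of 0.752, 7.60 and 1.08 CPM and ABT263 levels of 6.25, 6.34 and 3.98 CPM (means 3.14 ± 3.86 and 5.53 ± 1.34; log2 fold change 0.81, SE 0.87, edgeR adjusted p = 0.857). All 3 ABT263 libraries lay well above vehicle replicates 1 and 3 and below vehicle replicate 2. Without vehicle replicate 2 the log2 fold change was 2.59 (SE 0.39, unadjusted p = 0.0010, adjusted p = 0.626), so it did not pass over all genes then either. Part of its exons (3.4% of bases) overlaps Shmt2. Ndufa4 itself stood at 85.8, 93.2 and 81.1 CPM against 95.8, 187 and 80.2 CPM (0.48 ± 0.33 SE on the log2 scale; adjusted p = 0.742).

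The protein of Cox7a2l is described as joining complexes III and IV into a supercomplex, a role not examined in these C57BL/6 mice. Cox7a2l (chromosome 17, 83501918 to 83517330) had the lowest fold change of the 79, -0.42 (SE 0.31, edgeR adjusted p = 0.763). Its levels were 200.3, 370.5 and 193 CPM with vehicle and 219.8, 192 and 157 CPM with ABT263. The groups overlapped, and ABT263 replicate 2, where most other subunits were high, was near the other ABT263 libraries. Without vehicle replicate 2 the fold change was -0.054. Of its 50-base stretches 13.8% are shared with other genes. The other complex IV genes named by the rule had log2 fold changes of 0.39 (Cox6c), 0.21 (Cox6a1), 0.03 (Cox6b1), 0.33 (Cox6b2, a testis isoform at 2.31 to 5.91 CPM), 0.09 (Cox7a2) and 0.14 (Cox8a), with standard errors of 0.31 to 0.46.

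The muscle and brown fat isoforms left out by the rule were read against their common partners. Cox8b stood at 156 CPM in ABT263 replicate 2 and at 0.210 to 0.384 CPM in the other 5 libraries, where Cox8a stood at 217 CPM and at 103 to 191 CPM. Per length Cox8b thus made up 52.4% of the Cox8 family in ABT263 replicate 2 and at most 0.49% elsewhere. Cox7a1 stood at 45.4 CPM in ABT263 replicate 2 and at 0.687 to 1.32 CPM elsewhere. Per length this was 23.3% and at most 1.21% of the Cox7a family, counted as Cox7a1, Cox7a2 and Cox7a2l. In ABT263 replicate 2 these genes stood at 103, 166 and 174 CPM per kb. Cox6a2, the third isoform of heart and skeletal muscle, was not high there, at 0.578 CPM against 0.723 to 3.02 CPM in the other libraries. Cox7a1 and Cox8b, which brown fat is known to express, were thus high in the library with 80.2 CPM of Ucp1. The cardiac markers also had their highest sum there, at 96.2 CPM. Cox6a2, known mainly from striated muscle, was at 3.02 CPM or less in every library. Which cells gave the Cox7a1 and Cox8b counts was not tested.

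**Figure D5:**
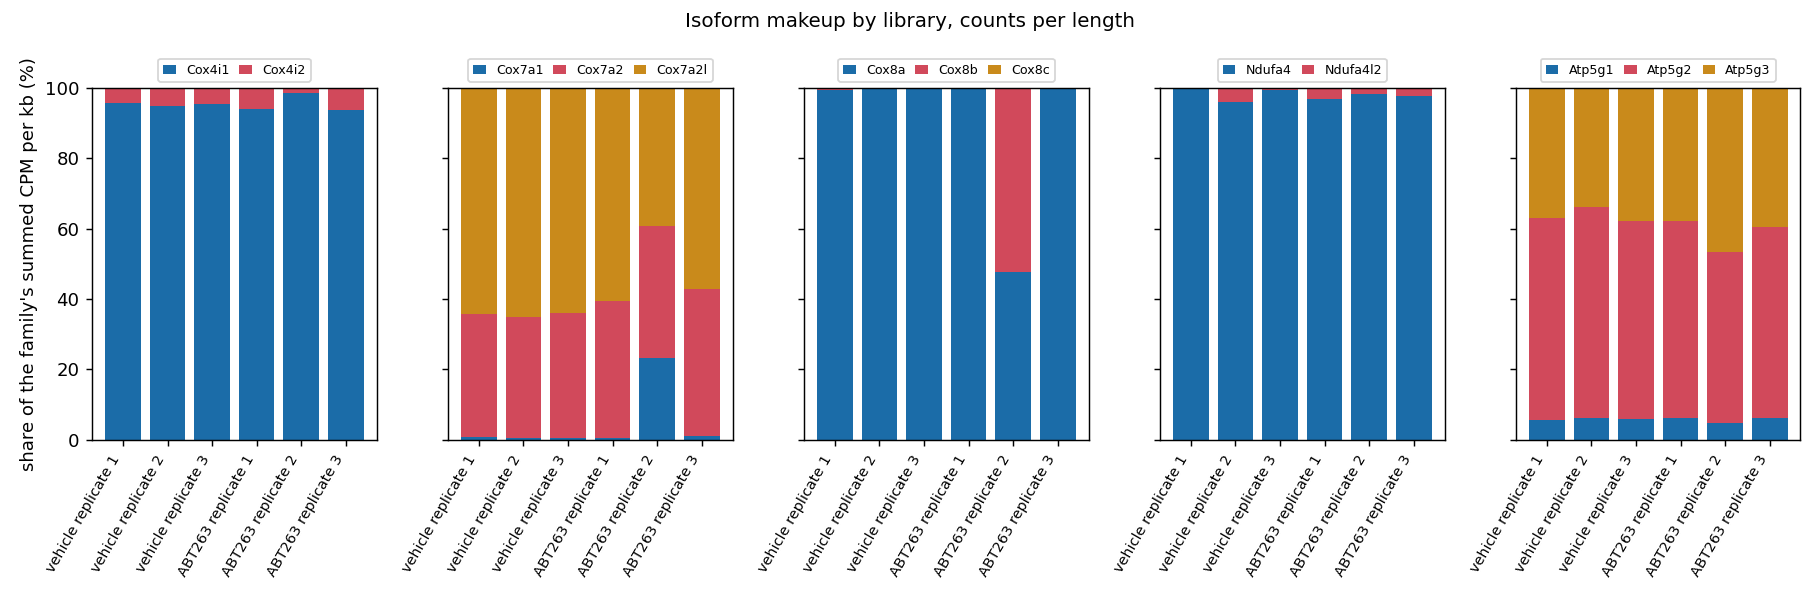
Share of each isoform family's summed CPM per kb of transcript (vertical axis, percent) in each of the 6 libraries, for the Cox4i, Cox7a, Cox8, Ndufa4 and Atp5g families. In ABT263 replicate 2, Cox8b takes 52.4%, Cox7a1 23.3% and Cox4i2 1.54%; in the other 5 libraries Cox8b takes at most 0.49%.

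Complex V had the smallest median fold change, 0.07. Atp5b, the catalytic beta subunit of the F1 head (chromosome 10, 128083273 to 128090391), had vehicle levels of 543, 678 and 476 CPM and ABT263 levels of 619, 1204 and 515 CPM (0.46 ± 0.38 SE on the log2 scale; edgeR adjusted p = 0.796). Its partner Atp5a1, the alpha subunit, had 0.28 (SE 0.29) and was 1.70-fold in ABT263 replicate 2 against 1.12-fold in vehicle replicate 2. Atp5e, the smallest F1 subunit, was highest in vehicle replicate 2, with 98.04, 252 and 106 CPM with vehicle and 146, 170 and 115 CPM with ABT263 (log2 fold change -0.08, SE 0.40). It had 2.46-fold in vehicle replicate 2 and 1.30-fold in ABT263 replicate 2. Over the 6 libraries Atp5e and Atp5b were both at 351 CPM per kb. The group means were 361 (Atp5e) and 295 (Atp5b) CPM per kb with vehicle, and 341 and 407 CPM per kb with ABT263. This order of means did not hold in each library. Per length, Atp5e was above Atp5b in ABT263 replicates 1 and 3 and below it in vehicle replicate 1. The 3 subunits e, f and g at the dimer interface (Atp5k, Atp5j2 and Atp5l) were each above 2-fold in vehicle replicate 2, with a median of 2.27. Atp5sl, which takes part in complex I assembly in spite of its symbol, had the lowest fold change of the group, -0.36 (SE 0.27).

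The membrane rotor of ATP synthase is a ring of c subunits, for which 3 genes encode the same mature protein behind different import sequences. Atp5g1 had vehicle levels of 60.9, 121 and 56.9 CPM and ABT263 levels of 83.9, 65.9 and 67.8 CPM (log2 fold change -0.13, SE 0.32). Atp5g2 had vehicle levels of 138, 259 and 119.6 CPM and ABT263 levels of 164, 144 and 127 CPM (-0.25, SE 0.33). Atp5g3 had vehicle levels of 109, 178 and 98.003 CPM and ABT263 levels of 136, 170.2 and 114 CPM (0.12, SE 0.29). All 3 were highest in vehicle replicate 2, and Atp5g1 and Atp5g2 were near or below the other ABT263 libraries in ABT263 replicate 2, at 0.869-fold and 0.988-fold. Per length Atp5g3 made up 37.0%, 33.7% and 37.7% of the 3 with vehicle and 37.8%, 46.7% and 39.5% with ABT263. Of counts it made up 35.4%, 31.9% and 35.7%, and 35.4%, 44.8% and 36.9%. Shares per length depend on the lengths used, 2675.5 bp for Atp5g1, 586 bp for Atp5g2 and 718.5 bp for Atp5g3. Atp5g1 made up 4.86% to 6.33% per length and 17.3% to 22.0% of counts. Counts of Atp5g2 are uncertain, since 38.3% of its 50-base stretches occur in other genes.

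With vehicle replicate 2 and ABT263 replicate 2 both left out, no gene of the 79 passed the test either. The summed level was 1.22-fold of the mean of vehicle replicates 1 and 3 in ABT263 replicate 1 and 1.02-fold in ABT263 replicate 3. The median log2 fold change over the 79 genes was 0.20, with 73 positive. In 38 of the 79 both ABT263 libraries lay above both vehicle libraries, against 19.2% of all genes tested, and in 0 of the 79 both lay below, against 19.7%. By complex the 38 were 20 of 35, 0 of 4, 4 of 8, 5 of 15 and 9 of 17. The genes move together over the libraries, so these are not 38 separate observations. Each of the 79 genes was highest in 1 of the 2 libraries left out, beside 54.9% of all genes tested. The split thus follows the values of these genes, and the comparison with all genes is a description only. Sdha and Ndufs1 had fold changes of -0.050 and -0.039 in this fit.

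Most genes of the citric acid cycle and of fatty acid oxidation were highest in ABT263 replicate 2, against 3787 of the 15222 genes tested. Genes of the citric acid cycle other than complex II were positive in 14 of 14 (median log2 fold change 0.53, 0 called), and all 14 were highest in ABT263 replicate 2, with a median of 2.53-fold there and 1.13-fold in vehicle replicate 2. Among them Sucla2 and Suclg2, subunits of succinyl-CoA ligase, had 1.03 (SE 0.50) and 0.97 (SE 0.43). Sucla2 was at 40.1 to 47.2 CPM with vehicle and 49.5, 166 and 49.6 CPM with ABT263. Genes of fatty acid oxidation were positive in 14 of 15 tested (median 0.82, 0 called), and 14 of the 15 were highest in ABT263 replicate 2, with a median of 3.63-fold in ABT263 replicate 2 and 1.07-fold in vehicle replicate 2. Acadm, the medium-chain acyl-CoA dehydrogenase, stood at 47.6 to 57.3 CPM with vehicle and 60.1, 335 and 65.3 CPM with ABT263 (1.56, SE 0.69), and Etfa, which carries its electrons onward, had 1.08 (SE 0.53). The respiratory chain genes had medians of 1.62-fold in ABT263 replicate 2 and 1.76-fold in vehicle replicate 2. The differences between these lists were not tested.

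The machinery that builds and regulates the chain had medians near 0. Of 40 tested assembly factors 23 were positive and 17 negative (median 0.04, 0 called), with medians of 1.34-fold and 1.22-fold in vehicle replicate 2 and ABT263 replicate 2; the 2 of smallest p were Lyrm7 (0.81, SE 0.40) and Tmem70 (0.36, SE 0.21). Mitochondrial ribosomal proteins were positive in 31 of 77 (median -0.03, 0 called), with Mrps6 (0.50) and Mrps31 (0.34) the 2 of smallest p. Of the 77, 65 were highest in vehicle replicate 2, against 4565 of the 15222 genes tested, a share not matched for transcript length. Genes that copy and transcribe mitochondrial DNA were positive in 5 of 10 (median 0.01, 0 called), and the transcription factor Tfam had 0.06 (SE 0.19). Regulators of mitochondrial biogenesis were positive in 6 of 9 (median 0.09, 0 called, 1 at an unadjusted p under 0.05, Ppara). Ppargc1a, the inducible coactivator of brown fat and muscle, stood at 0.343 to 0.878 CPM with vehicle and 0.238, 4.803 and 0.645 CPM with ABT263, and Ppara, a regulator of fat oxidation, at 0.448 to 0.790 CPM and 0.599, 45.9 and 1.77 CPM. Esrra, the oestrogen-related receptor alpha, stood at 30.8 to 48.9 CPM over the 6 libraries (-0.13, SE 0.21).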

How the data were processed

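The count table deposited by the authors gives unnormalised reads per symbol in 6 libraries. The submitters' processing notes list the build mm10, featureCounts 1.4.6, Subread, Bowtie2 2.2.6 and TopHat2 2.0.14, without role or order. For the annotation, strand setting and multi-mapping rule, the entry is: not given in the sources used here. Dropping shared reads would lower the counts of genes with near-identical copies. Groups came from sample titles, and replicates were numbered in accession order, which pairs nothing.

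Genes were kept by edgeR's filterByExpr (minimum count 10, minimum total 15), which left 15222 of 24062. Levels are CPM after TMM scaling. The test was edgeR 4.0.16 (R 4.3.3), quasi-likelihood, on group alone (4 residual degrees of freedom), with Benjamini-Hochberg adjustment over all genes kept and a threshold of 0.05. The SE of a log2 fold change is its size over the root of the F statistic. DESeq2 1.42.0, limma-voom (limma 3.58.1), RLE scaling, no filter and left-out libraries were alternatives. The procedure was tested on simulated data. No 2 libraries agreed within sampling noise (chi-square per degree of freedom 189 or more). With 0 counts, 3 counts are the limit, for counting error only.

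Transcript length is the median over a gene's protein-coding transcripts in GENCODE M21 (GRCm38, which mm10 denotes), and 81 of 82 genes matched. Overlaps used all exons of that set. Atp5o was not matched. Named genes were the 4 of smallest p in complexes I, III, IV and V, all of complex II, the gene of highest level per length in each complex, 14 listed by name and the 2 of smallest p per related list. Some of the genes so chosen are not described. The genes, lists and tests were chosen with earlier results of these data known. Ndufa11, Ndufa12 and Atp5j, and the genes of the e, f and g subunits, were picked after their values were seen.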

Additional observations from a re-analysis of the deposited data

How the results depend on the processing

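No respiratory chain gene was called under any of the 11 alternatives. Over all genes, DESeq2 called 153 and each other alternative 0. The median log2 fold change over the 79 was 0.13 with RLE scaling, 0.15 with no filter, 0.13 with DESeq2, 0.20 with limma-voom and 0.20 without both replicate 2 libraries. Leaving out 1 library gave -0.10 to 0.49. By complex the ranges were -0.098 to 0.55 (I), -0.092 to 0.43 (II), -0.071 to 0.58 (III), -0.11 to 0.45 (IV) and -0.15 to 0.41 (V), and the cause was not tested. Over the 41 genes with no exon overlap and little shared sequence, an alternative chosen after seeing the data, the median was 0.15. Without both replicate 2 libraries the log2 fold change turned sign for Ndufs1 (-0.039), Sdha (-0.050), Atp5g1 (0.36), Atp5g2 (0.18), Uqcrh (0.28), Atp5e (0.35) and Cox4i2 (0.68), and with limma-voom for Uqcrh (0.14) and Atp5e (0.089). Of 32 named genes, 21 turned sign when 1 library was left out, over these ranges: Ndufab1 -0.039 to 0.58, Uqcrfs1 -0.081 to 0.76, Uqcrc2 -0.083 to 0.63, Uqcrc1 -0.057 to 0.62, Uqcr11 -0.021 to 0.61, Atp5a1 -0.017 to 0.43, Atp5g2 -0.46 to 0.17, Sdhb -0.36 to 0.41, Sdhc -0.052 to 0.36, Sdhd -0.13 to 0.44, Ndufa6 -0.10 to 0.31, Uqcrh -0.27 to 0.54, Cox4i1 -0.16 to 0.42, Atp5e -0.32 to 0.49, Cox4i2 -0.39 to 0.35, Cox6a1 -0.060 to 0.45, Cox6b1 -0.22 to 0.44, Cox7a2 -0.10 to 0.43, Cox8a -0.21 to 0.45, Atp5g1 -0.33 to 0.30, Atp5g3 -0.049 to 0.43. Without ABT263 replicate 2, 17 of the 32 turned sign. At an unadjusted p under 0.05 stood 4 of the 79 without vehicle replicate 2 (Ndufa12, Ndufa4l2, Atp5j and Ndufa11), beside 1115 of all 15495 genes, and 4 of the 79 without both replicate 2 libraries (Ndufa12, Ndufa4l2, Ndufa11 and Cox4i2), beside 1081 of 15197. No paired analysis was possible because the labels give the groups no shared replicate numbers. A p that misses the threshold does not show that levels were equal.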
